A study of Mus musculus with 18 samples.

Results

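Cytosolic ribosomal protein genes were taken as the protein-coding rows, present in both expression tables, whose symbols begin with Rpl (large ribosomal subunit) or Rps (small subunit), without the Rps6k kinases and rows marked as pseudogenes. The rule gave 89 genes, out of 22017 rows in the in vitro table and 13195 in the bone marrow table. Large-subunit names account for 54 and small-subunit names for 35. Of the 89, 77 encode proteins of the standard ribosome and are called core genes here, 46 of the large and 31 of the small subunit. Another 10 are paralogs or gene copies, and 2 (Rpl7l1 and Rps19bp1) share the naming pattern without being subunits.

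The study measured mRNA in mouse bone marrow cells by bulk RNA-seq, reported as FPKM (fragments scaled to transcript length and to the library's mapped fragments). Cells came from mice with intact Fabp4 (WT), a gene for an intracellular carrier of fatty acids, from heterozygous knockouts (HET) and from homozygous knockouts (KO). The in vitro set holds 9 libraries, 3 per genotype, and the sorted bone marrow set 8 libraries, with 3 WT, 2 HET (replicates 1 and 3) and 3 KO. The third marrow HET library is not analysed here. The labels name no other allele or agent, no sorted population, culture condition, strain or age, and no design of the knockout allele. They do not say that each library came from its own mouse, so each p-value reflects how far libraries spread, which may be technical. Fabp4 does not check the genotypes: in vitro it was listed at 0 in 6 of 9 libraries and at 0.0326 FPKM in WT replicate 2, 0.33 in WT replicate 3 and 0.0676 in HET replicate 2, and it was not analysed here in the marrow. Depth, estimated from the spacing of low values, in units of 1e6 fragments, was about 30.6 to 36.9 in vitro and 3.98 to 35.9 in the marrow, where HET replicate 1 was lowest.

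The cytosolic ribosome joins a small subunit, which reads the mRNA, to a large subunit, which forms peptide bonds. Its proteins are made in near-matched amounts and unassembled ones are degraded. Many of their mRNAs begin with a cytosine followed by a run of pyrimidines, the terminal oligopyrimidine motif, through which mTOR signalling and Larp1 control translation rather than transcription. Blood formation is known for its sensitivity to ribosomal protein dosage: loss of 1 copy of Rps19, Rpl5 or Rpl11 underlies Diamond-Blackfan anaemia in people, and loss of 1 copy of Rps14 contributes to a myelodysplastic syndrome.

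Start-site windows are shown for members that the results below turn on, so that those with and without the pyrimidine run can be compared. They come from RefSeq on GRCm38.p6 (the assembly also called mm10), where 68 of the 89 members and 57 of the 77 core genes had a promoter entry. Each window has 30 bases, with the annotated transcription start at base 16, and 1 entry is shown per gene. Capitals mark a run of at least 6 C or T that begins with C within 5 bases of the annotated start.
Rps28 (chr17:33824548-33824577, minus strand): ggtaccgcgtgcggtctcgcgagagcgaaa
Rps27 (chr3:90213634-90213663, minus strand): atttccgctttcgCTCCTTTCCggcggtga
Rpl11 (chr4:136053379-136053408, minus strand): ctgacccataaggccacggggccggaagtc
Rpl12 (chr2:32961697-32961726, plus strand): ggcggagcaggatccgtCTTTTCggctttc
Rpl36al (chr12:69184053-69184082, minus strand): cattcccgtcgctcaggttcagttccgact
Rplp0 (chr5:115559452-115559481, plus strand): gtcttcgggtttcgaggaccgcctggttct
Rpsa (chr9:120127751-120127780, plus strand): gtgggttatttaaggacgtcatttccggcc
Rps2 (chr17:24720048-24720077, plus strand): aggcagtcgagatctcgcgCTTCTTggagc

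Among the 67 promoter entries of the 57 core genes, 26 (38.8%) held such a run on the coding strand, against 10.2% of all 32851 promoter entries. In the 250 bases before to 50 after the start, searched on both strands, CCGGAAG (the core of ETS family sites) was present in 37.3% of core promoters against 8.86% of all, and GCCATNTT (the YY1 core) in 22.4% against 6.05%. GGGCGG (the SP1 box) was present in 61.2% against 35.7%, and CACGTG (the E-box that Myc binds) in 11.9% against 7.15%. Matches of different motifs may overlap. A match describes these letters and not a bound site, and annotated starts can miss the start in use.

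All core genes were highly expressed in vitro. The 89 genes held 28.6% to 30.0% of summed FPKM in the WT libraries, and the median core gene ranked between 50 and 52 among protein-coding genes. Rplp1 of the acidic stalk, which recruits elongation factors, was the highest large-subunit gene in WT (4243 ± 143 FPKM, SD, n = 3), followed by Rpl32 (4119 ± 302) and Rpl41 (3763 ± 321). Rps29 (3984 ± 235), Rps23 (3676 ± 316), a protein of the decoding centre, and Rps26 (3449 ± 393) led the small subunit. FPKM is scaled per length, so these levels can be compared between genes. The neighbours in each of these orders differed by less than the sum of their SDs. The lowest core genes in vitro were Rpl21 (211 ± 39.8), Rpl22 (384 ± 32.1) and Rpl15 (442 ± 24.3) in the large subunit and Rps15a (246 ± 15.7), Rps20 (357 ± 34.9) and Rps12 (844 ± 81.6) in the small one. Genes such as Rpl21 have many near-identical processed copies in the mouse genome, and reads shared with copies could be split or dropped by a counting step that is not given in the sources used here.

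In the sorted marrow the same genes held 8.84% to 11.5% of summed FPKM in WT, and the order changed. Rpl35 (3061 ± 491 FPKM), Rpl32 (2177 ± 716) and Rpl13 (2044 ± 282) led the large subunit, and Rps29 (2658 ± 560), Rps27 (2391 ± 1007) and Rps18 (1907 ± 396) the small one. Rpl22 (109 ± 23.0), Rpl27a (114 ± 28.7), Rps15a (68.0 ± 24.4) and Rps20 (92.2 ± 26.2) were low. Rpl28 stood apart in this set. Rpl28 was listed at 0 in 6 of 8 marrow libraries, at 0.0639 FPKM in WT replicate 3 and at 0.493 in KO replicate 1, against 2670 to 3716 FPKM in vitro. Rpl28 encodes a subunit that every cell uses, so these values are given as listed and are not read as absence. The 2 tables were normalised separately, and levels are therefore not tested between them except through the genotype difference described last.

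**Figure D1:**
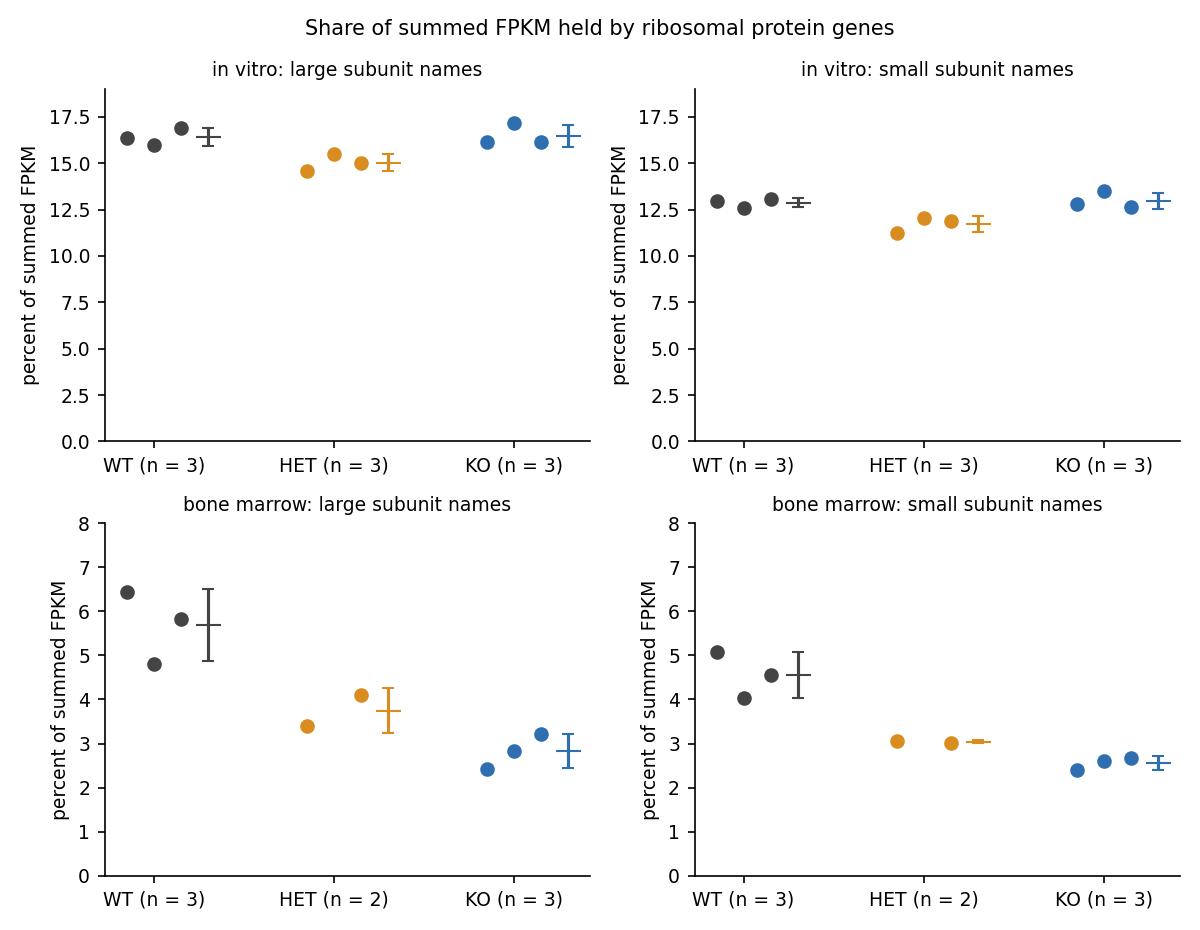
Share of each library's summed FPKM held by genes with large-subunit names (left) and small-subunit names (right), in percent, for the in vitro set (top) and the sorted marrow (bottom). Points are libraries, bars the mean ± SD of each genotype; the 3 in vitro HET libraries lie below all WT and KO libraries, and the 3 marrow KO libraries lie below all WT libraries.

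In vitro, ribosomal protein genes of both subunits held a smaller share of summed FPKM in HET than in WT libraries, while 3 single genes, all of the small subunit, passed the test. The large-subunit share of summed FPKM was 16.4%, 16.0% and 16.9% in WT replicates 1 to 3 and 14.6%, 15.5% and 15.02% in HET replicates 1 to 3. The small-subunit share was 12.95%, 12.6% and 13.1% in WT and 11.2%, 12.04% and 11.9% in HET. All HET libraries lay below all WT libraries for both shares. The ratio of the small-subunit sum to the large-subunit sum was 0.784 ± 0.00973 in WT, 0.780 ± 0.00911 in HET and 0.788 ± 0.00467 in KO (SD, n = 3 each), a difference within the spread between replicates. In bulk samples, fewer cells of a type and less RNA per cell cannot be told apart.

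A filter of at least 1 FPKM in at least 3 libraries left 86 of the 89 genes and 10877 genes in all for the test. Rpl39l, Rpl3l and Rps23rg1 did not pass it. Fold changes are differences of log2(FPKM + 1), which understates changes of low genes, and tests are limma's with Benjamini-Hochberg adjustment over all genes tested at 0.05. For HET against WT the median change was -0.23 in the large and -0.25 in the small subunit, against 0.04 over all genes tested. The 3 HET values lay below the 3 WT values for 73 of the 86 genes (45 of 52 large, 28 of 34 small) and above them for none, where 11.9% of all genes tested lay below and 17.2% above. Among the core genes the HET to WT ratio of mean FPKM ran from 0.761 for Rpl21 to 0.985 for Rplp0 in the large subunit, with a median of 0.853. In the small subunit its median was 0.848, and Rpsa had the highest ratio, 0.988.

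For 3 small-subunit genes the level fell, and no member rose: 3 of 86, where limma called 3.68% of all genes tested, 0.735% as lower and 2.94% as higher. Of the 3, Rps28 and Rps29 are described here. Rps28, a small-subunit protein near the mRNA exit channel (gene 54127, chr17:33823036-33824562), was at 1719, 1725 and 1851 FPKM in WT replicates 1 to 3. It was at 1362, 1506 and 1453 in HET and at 1755, 1831 and 1685 in KO. The HET values lay below all others, while WT and KO overlapped. Its change in HET was -0.29 ± 0.07 (SE), with an adjusted p of 0.0386 from limma. Rps29, a zinc-binding protein of the small-subunit head (gene 20090, chr12:69157722-69159186), was at 3801, 3901 and 4249 FPKM in WT, at 2944, 3351 and 3274 in HET and at 3923, 4103 and 3609 in KO. The HET values were again the lowest group without overlap, and limma gave -0.32 ± 0.08 with an adjusted p of 0.0459.

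None of the 3 calls survived the loss of any 1 HET library, of WT replicates 2 or 3 or of KO replicates 1 or 3: the count was 1 without WT replicate 2 (Rpl32l, higher), 0 without any of the others, and 8, all lower, without either WT replicate 1 or KO replicate 2. Calls over all genes rose too, from 320 higher and 80 lower of 10877 to 469 and 157 of 10844 without WT replicate 1. They were 473 and 155 of 10847 without KO replicate 2, and 150 and 35 of 10840 without WT replicate 2. Adjusted p (limma) over these leave-one-out fits ran from 0.0248 to 0.14 for Rps28 and from 0.0297 to 0.171 for Rps29, and their changes stayed between -0.36 and -0.25.

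At an unadjusted p under 0.05, 64 of the 86 genes were lower and none was higher, where 2547 of all 10877 genes tested passed in either direction. The large-subunit genes with the smallest p were Rpl27, Rpl36a and Rpl39, a short protein that lines the peptide exit tunnel. Rpl27 was at 1058 ± 82.0 FPKM in WT and 866 ± 21.5 in HET (SD, n = 3), with a limma adjusted p of 0.051. Rpl36a was at 1629 ± 139 and 1310 ± 84.4 (limma adjusted p 0.0593), and Rpl39 at 2469 ± 200 and 2007 ± 166 (limma adjusted p 0.0629). None of these 3 passed the threshold, although their groups did not overlap.

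**Figure D2:**
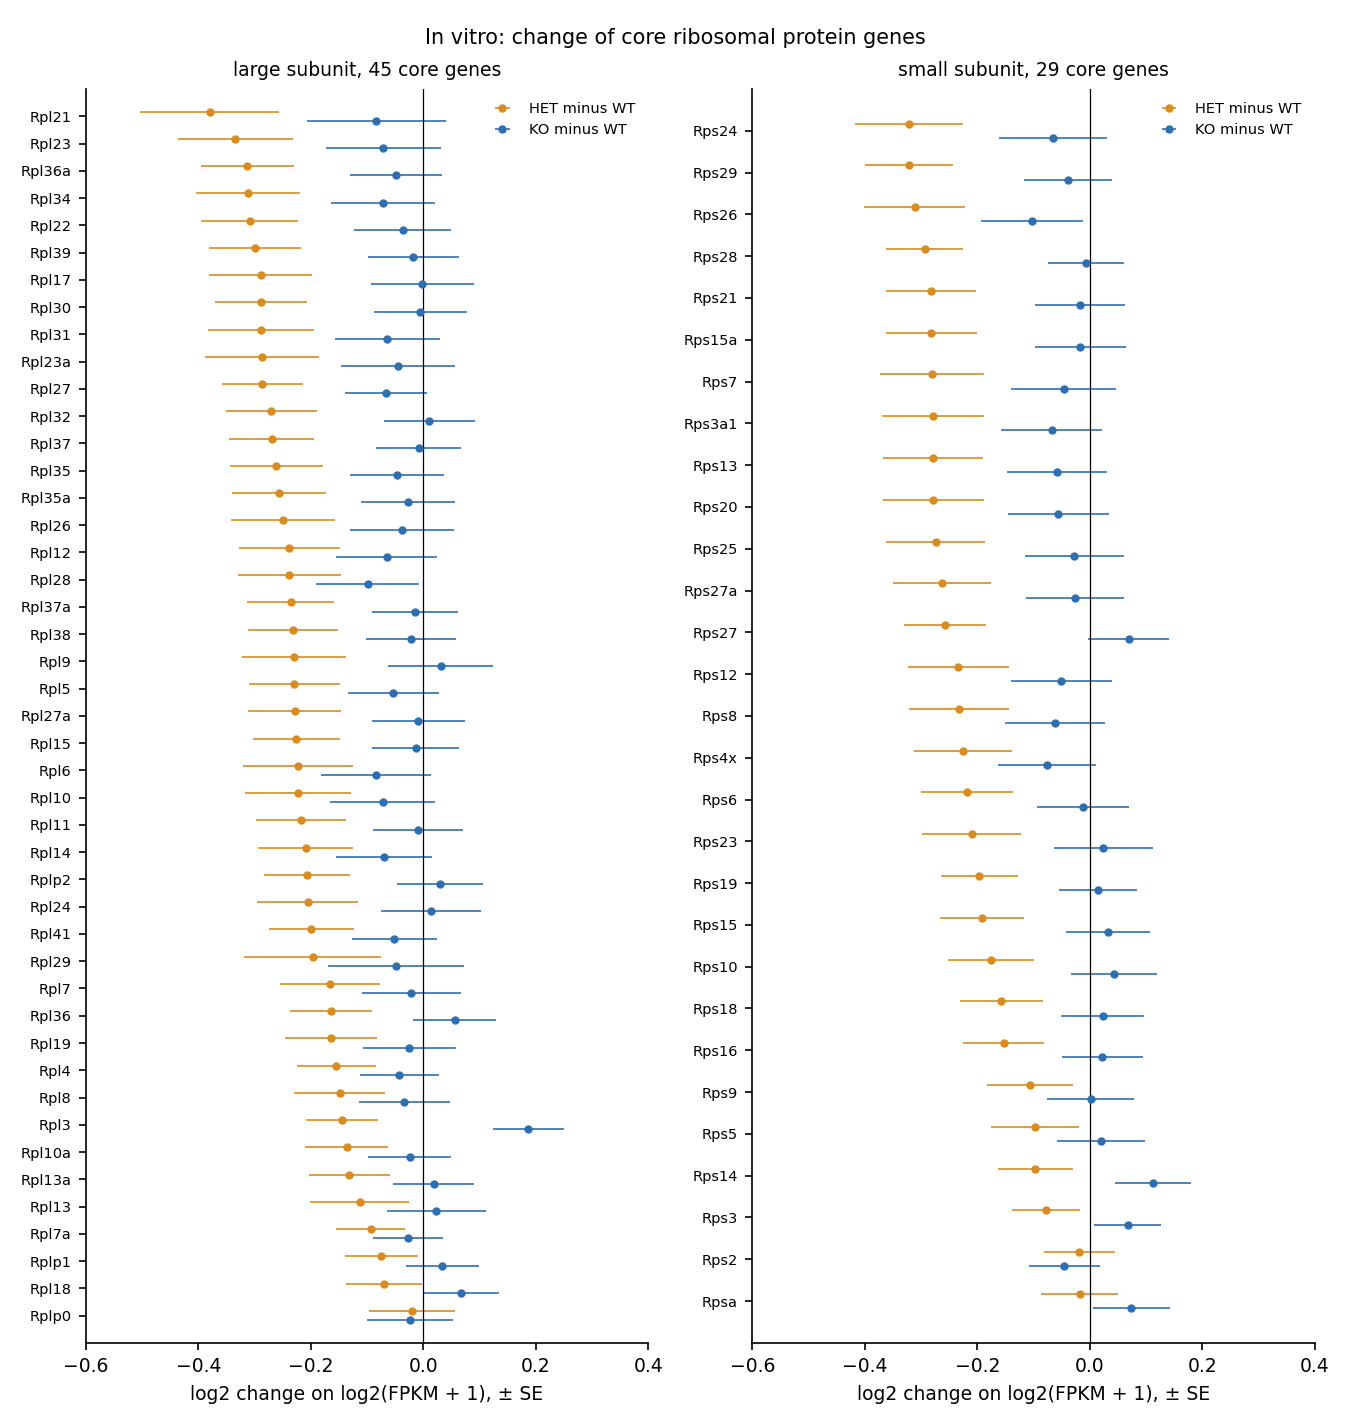
Change of 74 of the 77 core genes in vitro on the log2(FPKM + 1) scale, HET minus WT (orange) and KO minus WT (blue), with limma standard errors, for the large (left) and small subunit (right), sorted by the HET change. Both series use the same 3 WT libraries. The orange points lie left of 0 for all 74 genes shown, from Rpl21 and Rps24 to Rplp0, Rps2 and Rpsa, and the blue points lie around 0 with Rpl3 farthest to the right.

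The size of the HET difference varied among core genes. Of the 9 core genes whose HET and WT values overlapped, Rpl13, Rpl18, Rpl29, Rplp0 and Rplp1 belong to the large and Rps2, Rps9, Rps14 and Rpsa to the small subunit. Rplp0, the scaffold of the acidic stalk, was at 2522, 2535 and 2723 FPKM in WT and at 2568, 2581 and 2517 in HET. Rpsa, the laminin receptor homologue of the small subunit, was at 2100, 2085 and 2143 in WT and at 2063, 2137 and 2051 in HET. Rps2, which lies at the mRNA entry channel, was at 3198, 3056 and 3064 in WT and at 3089, 3067 and 3040 in HET. Each of these 3 groups overlapped with WT, with changes of -0.02 ± 0.08 (Rplp0), -0.02 ± 0.07 (Rpsa) and -0.02 ± 0.06 (Rps2). Relative to the median core gene of its own library, a measure that does not depend on how libraries are scaled, Rpsa, Rps2 and Rplp0 were 0.18 higher in HET than in WT on the log2 scale. On the same measure the difference was -0.18 for Rpl21 and -0.13 for Rpl23. After scaling every library to its median core gene, an alternative added after the data were seen, limma called Rplp0 (adjusted p 0.0297) and Rpsa (adjusted p 0.0338) higher in HET and 1 member lower. That scaling called 1014 of 10903 genes higher and 26 lower, so 2 of 86 members higher is below the share over all genes. Of the windows shown above, Rps2 has the pyrimidine run, and Rplp0 and Rpsa do not have it at the annotated start. The median HET change was -0.23 for the 25 tested core genes with such a run and -0.23 for the 32 without it.

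Core genes with short coding sequences had the larger HET differences. Across the 77 core genes the Spearman correlation of coding length with the HET change was 0.564, given as a description because all genes share the same 6 libraries. The same correlation over the 9957 tested genes with a known length was 0.438, so a link with length was not confined to ribosomal protein genes. The 19 shortest core genes, with coding lengths of at most 369 bases, had a median change of -0.27, and the 19 longest, of at least 633 bases, a median of -0.15. For KO against WT the correlation was -0.00689 over core genes and 0.256 over the 9957 tested genes with a known length. Over the 78 mitochondrial ribosomal protein genes, it was 0.0774 for HET against WT.

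**Figure D3:**
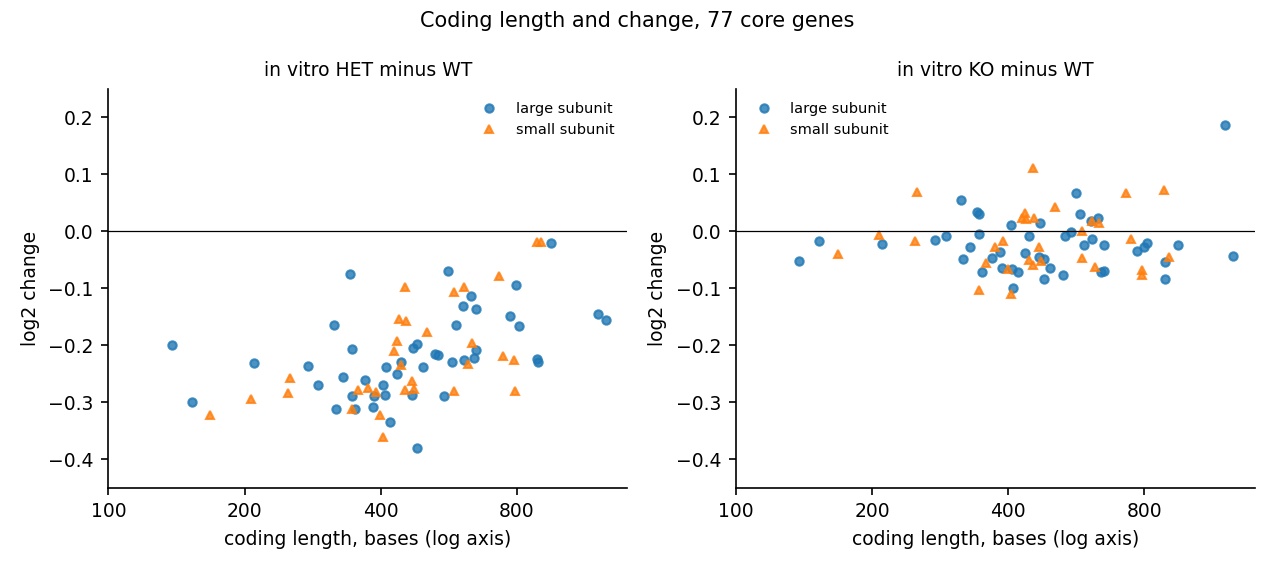
Coding length in bases (log axis) against the log2 change in vitro for the 77 core genes, HET minus WT (left) and KO minus WT (right), with large-subunit genes as circles and small-subunit genes as triangles. In HET the 19 shortest genes have a median of -0.27 and the 19 longest a median of -0.15; in KO the points lie around 0 at all lengths, with Rpl3 the highest.

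Libraries within a genotype also differed. HET replicate 1 was the lowest of the 9 in vitro libraries for 62 of the 77 core genes, and HET replicate 3 for 12. WT replicate 3 was the highest for 49 and KO replicate 2 for 26. These 2 libraries had the highest summed FPKM of all genes in the set, 539800 and 521466, against 479831 to 503107 in the other 7. Without both, limma called 6 members lower in HET, among them Rpl27, Rps26, Rps28, Rps29 and Rps3a1, where it called 98 of 10799 genes lower and 388 higher. Other markers moved with the HET libraries as well, where limma called 2.94% of all genes tested higher and 0.735% lower. Of 8 tested macrophage markers 5 rose in HET, and their summed level over the 14 markers in the table was 67.0 to 81.4 FPKM in WT, 123 to 140 in HET and 101 to 105 in KO, with C1qa and Ms4a7 at or near 0 throughout. Of 14 tested neutrophil granule genes 6 rose in HET, and the list held 1.28% to 1.49% of summed FPKM in WT, 1.68% to 2.23% in HET and 1.22% to 1.94% in KO. Xist was lower in HET (15.4 ± 3.00 FPKM against 42.0 ± 9.44 in WT, limma adjusted p 0.00825) and Y-linked Ddx3y higher (9.93 ± 1.56 against 3.19 ± 0.731, limma adjusted p 0.000311). Of 5 sex-linked genes 3 were also called higher in KO than in WT, Ddx3y among them (a change of 0.84, limma adjusted p 0.0139). Of 10 immediate early genes 5 rose in HET and 5 in KO, where 1.36% of all genes tested were called higher in KO. The part of any of these in the ribosomal protein result was not tested.

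Knockout cells in vitro did not show the lower shares seen in HET. The large-subunit share was 16.1%, 17.2% and 16.1% in KO replicates 1 to 3 and the small-subunit share 12.8%, 13.5% and 12.7%, both overlapping WT. The median change from WT was -0.03 in the large and -0.02 in the small subunit, and its sign turned positive under quantile normalisation (0.03 in both), rescaling to TPM and both rescalings on non-member genes. It also depended on single libraries: the medians were 0.04 and 0.04 without WT replicate 3, 0.00 and 0.02 without KO replicate 1, and -0.09 and -0.08 without KO replicate 2. Without WT replicate 1 they were -0.06 and -0.04, without WT replicate 2 -0.05 in both, and without KO replicate 3 near 0 in both. limma called 0 of 86 members, where it called 2.99% of all genes tested (1.36% higher, 1.63% lower), with 2 higher and 1 lower at an unadjusted p under 0.05. At that unadjusted p, 2114 of all 10877 genes tested passed in either direction. KO and WT values did not overlap for 1 lower member (Rpl22l1) and 3 higher ones (Rpl3, Rps3 and Rps14), where 9.09% of all genes tested lay below and 13.8% above.

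Rpl22l1, the paralog that can replace Rpl22 in the ribosome, was nearest to the threshold. It was at 554, 536 and 662 FPKM in WT replicates 1 to 3 and at 460, 466 and 462 in KO, with no overlap and a limma change of -0.33 ± 0.08 (adjusted p 0.0519). HET was between 466 and 500.1. It passed the threshold with the filter at 5 FPKM (adjusted p 0.0489), quantile normalisation (0.0453), TPM (0.0234), rescaling on non-members (0.0363) or on genes that are neither members nor granule genes (0.0395), and with WT replicate 3 and KO replicate 2 both left out (0.0463). The Rpl22l1 change did not pass in any fit that left out 1 library (limma adjusted p 0.0535 to 0.193). Nor did it pass with median-ratio factors (0.0662), no filter (0.0999), the replicate block (0.0931) or only the compared groups (0.119). Rpl22 itself was at 384 ± 32.1 in WT and 375 ± 32.9 in KO. Rpl3, which shapes the peptidyl transferase centre, was at 1974, 1992 and 2049 in WT, 1818, 1859 and 1766 in HET and 2221, 2421 and 2210 in KO. It was the only core gene of the large subunit whose KO values lay above all WT values, with a limma change of 0.19 ± 0.06 and an adjusted p of 0.135. limma called it higher under quantile normalisation (adjusted p 0.0299), TPM (0.0225) and rescaling on non-members (0.0402) or on genes that are neither members nor granule genes (0.0456). For KO against WT, Rpl3 was not called with median-ratio factors, no filter, the replicate block or any 1 library left out. Rps14 was at 2537 ± 57.8 in WT and 2742 ± 60.2 in KO (SD, n = 3), a limma change of 0.11 ± 0.07 with an adjusted p of 0.391. The change of Rps26 was -0.10 ± 0.09.

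Knockout cells were higher than heterozygous cells for most members, in a comparison that uses the same HET libraries as HET against WT. The 3 KO values lay above the 3 HET values for 65 of 86 genes, and below them for 1, where 11.3% of all genes tested lay above and 11.1% below, and the median change was 0.21 in the large and 0.22 in the small subunit. limma called 2 of 86 members, both higher in KO, where it called 1.99% of all genes tested, 0.598% as higher and 1.39% as lower. Rpl3 (gene 27367, chr15:80077781-80083406) rose by 0.33 ± 0.06 (limma adjusted p 0.0191), from the HET values to the KO values given above, a ratio of 1.26. Rps27 (gene 57294, chr3:90212667-90213648), a zinc-finger protein of the small subunit, was at 1443, 1663 and 1605 FPKM in HET, 2059, 1985 and 1861 in KO and 1832, 1874 and 1919 in WT. KO lay above HET without overlap, and the change was 0.33 ± 0.07 (limma adjusted p 0.041). The Rpl3 call was lost without any 1 HET library or without KO replicates 1 or 3 (limma adjusted p 0.0645 to 0.138), and that of Rps27 without any 1 HET or KO library or without WT replicate 2 (0.0775 to 0.181).

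Of the genes tied to marrow disease, Rps19, Rpl5 and Rpl11 had HET values below WT in vitro, while those of Rps14 overlapped with WT (2375 ± 160 FPKM in HET, a limma change of -0.10 with none of the 4 genes called). Rps19 was at 1710 ± 90.4 FPKM in WT, 1492 ± 72.3 in HET and 1726 ± 65.0 in KO (SD, n = 3). Rpl5 was at 1315 ± 88.0, 1122 ± 56.9 and 1269 ± 108, and Rpl11 at 953 ± 66.1, 820 ± 53.9 and 947 ± 63.9. These 2 proteins bind Mdm2 together with 5S rRNA when ribosome assembly fails. For all 3 the HET values lay below the WT values without overlap, and limma's adjusted p was 0.12 for Rps19, 0.121 for Rpl5 and 0.136 for Rpl11. Of the other stalk genes, Rplp1 overlapped between HET (4030 ± 144) and WT (4243 ± 143), while Rplp2 did not (2066 ± 79.1 against 2387 ± 150, limma adjusted p 0.136).

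The genes outside the core set were mostly far lower. Rpl36al was at 603 ± 39.6 FPKM in WT in vitro, Rpl37rt at 197 ± 7.92, Rpl6l at 117 ± 17.4 and Rps27l, which p53 induces, at 71.9 ± 9.12. RefSeq lists Rpl6l as a pseudogene, and Rpl36al, Rpl37rt, Rpl6l and Rps27rt are close to a parent gene in sequence, so their reads may belong to it. Rpl36al, Rpl37rt, Rpl6l, Rps27l and Rpl22l1 lay below WT in HET without overlap, with changes from -0.34 for Rpl6l to -0.19 for Rpl36al, and none passed limma's threshold. Rps27rt (60.4 ± 11.3) overlapped between genotypes. Rpl7l1 (52.4 ± 2.89 in WT, 56.2 ± 7.22 in HET) and Rps19bp1 (21.1 ± 2.99 and 20.8 ± 1.75), which are no subunits, overlapped too and had changes of 0.09 and -0.01. Rpl32l was at 3.05 ± 1.20 in WT and 4.14 ± 0.224 in KO. Rpl39l, a testis paralog, was listed at 0 in all 3 WT libraries and at 0.701, 0.714 and 1.25 in HET, too low for the filter. Rpl3l, the muscle paralog, was between 0.16 and 0.713 FPKM, and Rps23rg1 between 0.0363 and 0.33.

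Other lists of the translation machinery are given by their counts and medians. Over all genes tested in vitro, limma called 0.735% lower and 2.94% higher in HET, and 1.63% lower and 1.36% higher in KO. Of 3 genes that encode ribosomal proteins under other names, among them Fau and Rack1, 0 passed limma's test in HET, and their median change was -0.15. Of 27 translation factors 1 fell and 0 rose in HET (median -0.11): Eif2s2, a subunit of the factor that brings the initiator tRNA, was at 119 ± 2.06 FPKM in WT and 98.7 ± 3.16 in HET (limma adjusted p 0.0335). None of the 78 mitochondrial ribosomal protein genes passed in any in vitro comparison, with medians of -0.09 in HET and -0.01 in KO. Ribosome biogenesis genes, which make and process ribosomal RNA, had a median of 0.24 in HET and 0.17 in KO. Of 43, 1 rose in HET, where 2.94% of all genes tested were called higher, and 3 in KO, where 1.36% were, and none fell. Their summed level was 1441 to 1488 FPKM in WT, 1790 in HET replicate 1 and 1491 and 1441 in the other HET libraries, and 1523 to 1633 in KO, so 1 HET library stood above the rest. Polr1b, a subunit of RNA polymerase I, was at 5.26 ± 0.105 FPKM in WT, 8.83 ± 2.10 in HET and 8.79 ± 1.44 in KO (limma adjusted p 0.0397 and 0.0437). Nop2, which methylates ribosomal RNA (0.72, limma adjusted p 0.0365), and the nucleolar GTPase Gnl3 (0.72, limma adjusted p 0.0231) rose in KO. Among 18 genes that control translation or respond to ribosome stress, 1 fell in HET and 2 in KO, and 0 rose in either. The medians of this list were 0.15 in HET and 0.14 in KO, against 0.04 over all genes tested. Eif4ebp1, an mTOR-regulated inhibitor of translation, was at 154 ± 18.0 FPKM in WT, 103 ± 11.9 in HET and 94.9 ± 10.9 in KO (limma adjusted p 0.0196 and 0.0103). The p53 target Cdkn1a was at 178 ± 9.85 in WT and 125 ± 1.37 in KO (limma adjusted p 0.00949). HET and KO are compared here with the same WT libraries.

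In the sorted marrow, ribosomal protein genes held a smaller share of summed FPKM in KO than in WT, but no single gene passed the test. The large-subunit share was 6.43%, 4.82% and 5.83% in WT replicates 1 to 3, 3.39% and 4.10% in HET replicates 1 and 3, and 2.43%, 2.84% and 3.21% in KO replicates 1 to 3. The small-subunit share was 5.07%, 4.03% and 4.56% in WT, 3.06% and 3.01% in HET and 2.39%, 2.60% and 2.68% in KO. For both shares WT lay above HET and HET above KO without overlap. Between 22 and 27 core genes were among the 100 highest protein-coding genes in the WT libraries, 15 and 19 in HET and 14 to 15 in KO, a rank measure that needs no scaling. The small to large ratio was 0.802 ± 0.03 in WT and 0.912 ± 0.0744 in KO (SD, n = 3), with the highest WT and the lowest KO library both at 0.836.

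For KO against WT the median change was -0.81 in the large and -0.74 in the small subunit, against -0.18 over the 7246 genes tested. Here 87 of the 89 genes passed the filter, all but Rpl28 and Rpl39l. KO lay below WT without overlap for 52 of 87 genes (35 of 52 large, 17 of 35 small) and above it for none, where 8.14% of all genes tested lay below and 4.11% above. limma called 0 members and 0% of all genes tested. The same test did not call the changes put into simulated data with the spread of these libraries, so an absence of calls in the marrow says little. At an unadjusted p under 0.05, 32 members were lower and none higher, where 370 of all 7246 genes tested passed in either direction. Neutrophil granule genes moved with genotype in these libraries. The 15 listed genes held 3.43% to 11.04% of summed FPKM in WT, 21.5% to 22.2% in HET and 23.7% to 31.5% in KO, none was at 0 throughout, and S100a8 alone was at 837 to 33970 FPKM in WT and 83030 to 138700 in KO. With the granule genes taken out of the sum, ribosomal protein genes held 9.68% to 12.9% in WT. They held 8.30% to 9.06% in HET and 7.03% to 8.06% in KO, without overlap. After rescaling on genes that are neither members nor granule genes the KO medians were -0.70 and -0.63. Neither step takes out the other mRNA of cells that express granule genes. Of 5 sex-linked genes 3 were tested in the marrow, and 0 were called for KO against WT. Their changes were 2.125 (Eif2s3y), -2.26 (Xist) and 0.76 (Ddx3y). The part of cell content or sex in the KO difference was not tested.

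Rpl39 was at 518, 563 and 550 FPKM in WT replicates 1 to 3, at 721 and 584 in HET and at 11.99, 101 and 162 in KO. All KO libraries lay far below WT and HET, with a limma change of -3.18 ± 0.78 and an adjusted p of 0.427. Rplp2 was at 963, 939 and 834 in WT, 604 and 526 in HET and 92.2, 432 and 391 in KO (-1.86 ± 0.53, limma adjusted p 0.458). For both genes KO replicate 1 was the lowest library by far. Rpl36al was at 914 ± 97.8 in WT and 395 ± 76.6 in KO, and Rps26, whose dosage also matters in Diamond-Blackfan anaemia, at 1488 ± 187 and 735 ± 193. Rps28 was at 1095 ± 214 in WT and 531 ± 82.0 in KO, and Rps14 at 1603 ± 135 and 781 ± 194 (SD, n = 3). None of these 4 groups overlapped, and limma's adjusted p was between 0.452 and 0.653 for them. Rpsa (616 ± 71.9 in WT, 319 ± 28.9 in KO), Rplp0 (1162 ± 179 and 691 ± 140), Rplp1 (1007 ± 425 and 484 ± 147), Rps19 (1052 ± 92.8 and 830 ± 67.1) and Rpl22 (109 ± 23.0 and 69.6 ± 8.25) were lower in KO without overlap. Rpl5 overlapped (347 ± 65.8 and 271 ± 55.2), as did Rps3, the core gene of the small subunit with the highest KO to WT ratio, 1.13.

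**Figure D4:**
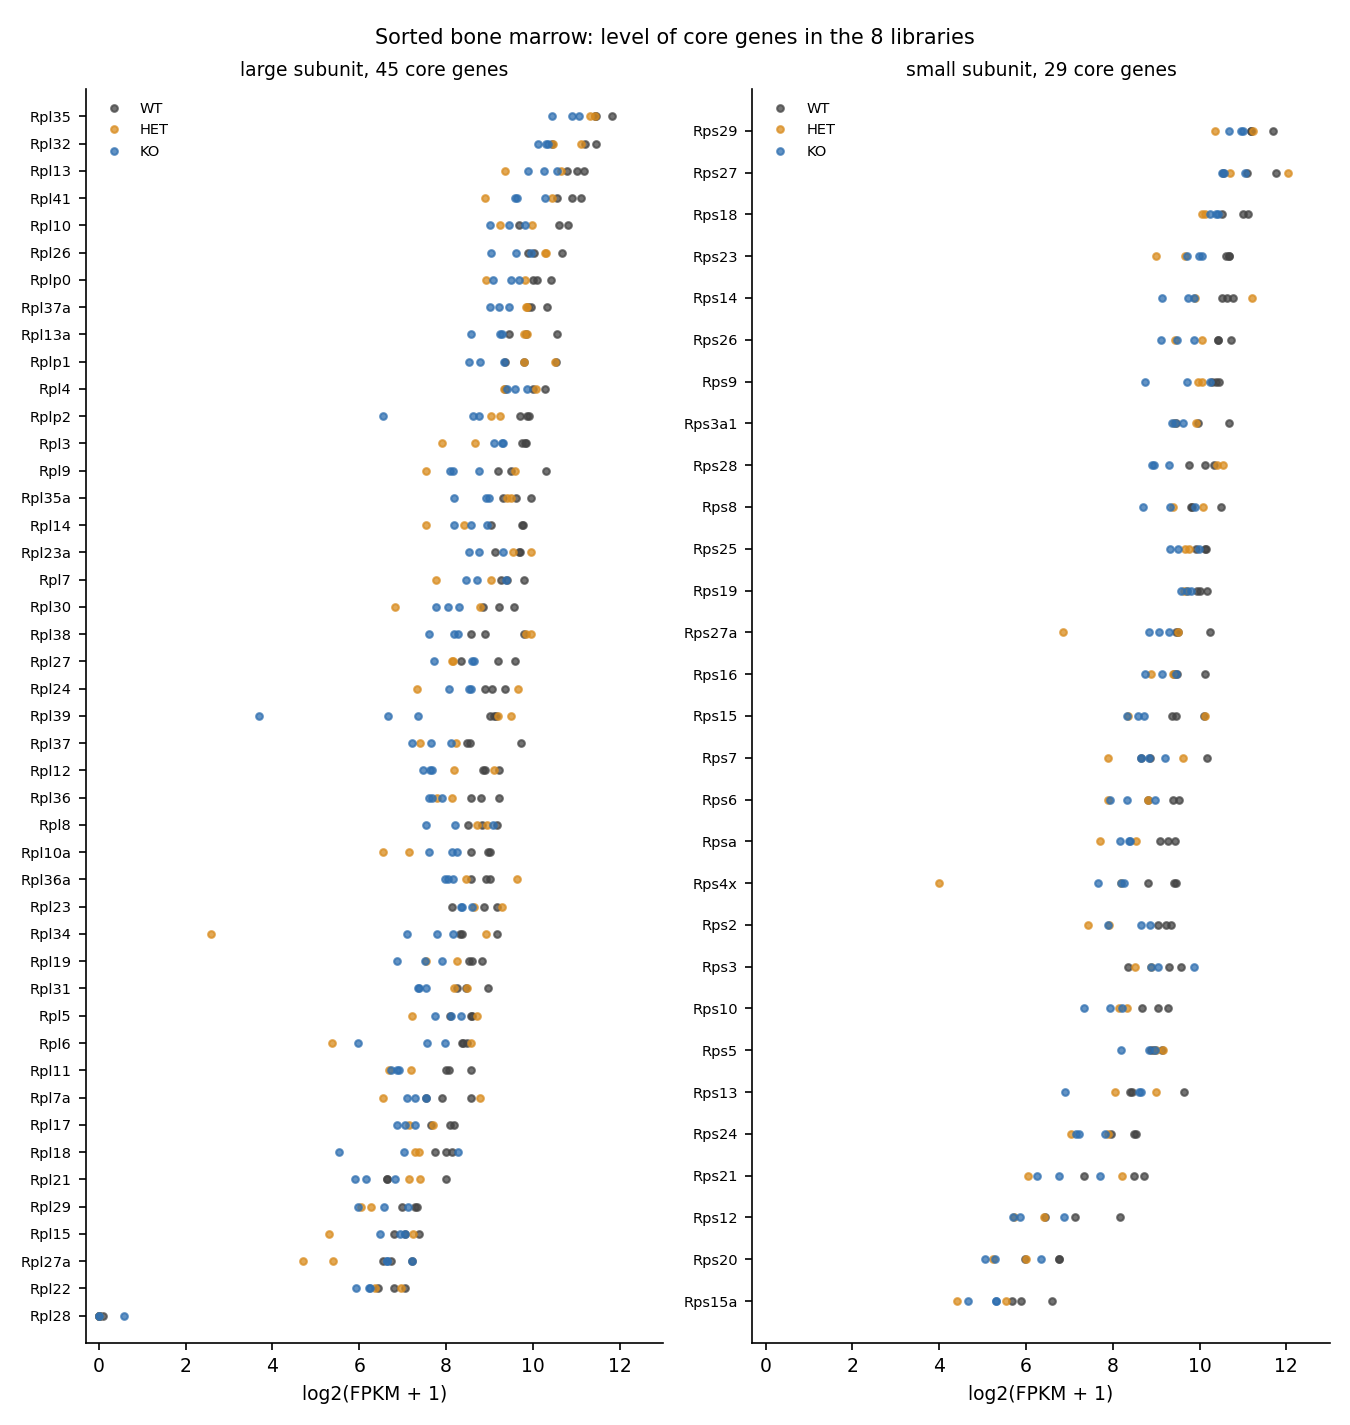
Level of 74 of the 77 core genes on the log2(FPKM + 1) scale in the 8 sorted marrow libraries, sorted by the WT mean, for the large (left) and small subunit (right), WT in dark grey, HET in orange and KO in blue. KO points lie left of the WT points for most genes, single HET or KO libraries fall far below for Rpl39, Rpl34, Rps4x and Rplp2, and Rpl28 is at or near 0 in all libraries.

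Marrow HET libraries were 2 and differed from each other. For HET against WT the medians were -0.72 and -0.57, against -0.99 over all genes tested, but under quantile normalisation they were -0.61 and -0.63, against -0.03 over all genes, so their place relative to other genes depended on the scaling. HET lay below WT without overlap for 40 of 87 members and above it for 4, where 24.3% of all genes tested lay below and 5.8% above. limma called 0 of 87 members and 0.262% of all genes tested, with 22 members lower at an unadjusted p under 0.05 and none higher. At that unadjusted p, 902 of all 7246 genes tested passed in either direction. The smallest p belonged to Rps23 (1613 ± 44.1 FPKM in WT, 508 and 806 in HET, limma adjusted p 0.134), Rpl3 (892 ± 26.9, then 408 and 238, limma adjusted p 0.151) and Rpl10a (465 ± 75.3, then 140 and 92.4, limma adjusted p 0.159). Rps2 (590 ± 61.0, then 172 and 239) and Rps4x (614 ± 141, then 14.97 and 291) had larger p-values. Rpl34 was at 4.96 FPKM in HET replicate 1, the shallowest library, and at 487 in HET replicate 3, while Rpl22l1 was at 372 in HET replicate 1 and listed at 0 in HET replicate 3. Without HET replicate 1 limma called 3 members (Rpl22l1, Rpl3 and Rpl7l1), and without HET replicate 3 it called 9 (among them Rpl6, Rpl13, Rpl30, Rpl34, Rpl41, Rps4x, Rps23 and Rps27a), all lower and each time with 1 HET library assumed to vary like the other groups. Calls over all genes rose too, from 19 lower of 7246 to 111 lower of 7086 without HET replicate 1 and to 315 lower and 8 higher of 6958 without HET replicate 3. Rps28 went the other way, with 1491 and 1360 in HET against 868 to 1292 in WT.

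For KO against HET in the marrow the medians were -0.20 and -0.03, against 0.83 over all genes tested, but under quantile normalisation they were -0.17 and 0.04, against 0.01 over all genes. KO lay below HET without overlap for 22 of 87 members and above it for 8, where 7.27% and 20.7% of all genes tested did. limma called 0 of 87 members and 0.166% of all genes tested, with 4 higher and 8 lower at an unadjusted p under 0.05. At that unadjusted p, 817 of all 7246 genes tested passed in either direction, a share near that of the members. Without HET replicate 1 it called 2 (Rpl22l1 and Rpl7l1), both higher, where 119 of 7086 genes were called higher and 0 lower. Without HET replicate 3 it called 4, with Rpl34, Rps4x and Rps27a higher and Rps14 lower, where 316 of 6958 genes were called higher and 14 lower, a share near that of the members. The paralogs and copies were uneven in this set: Rpl3l was listed at 0 in 5 libraries, Rps19bp1 in 2 and Rpl39l in 7, while Rpl37rt was at 56.7 ± 28.8 FPKM in WT and between 10.5 and 35.8 in KO. Rpl32l was between 0.425 and 3.41 FPKM, Rps23rg1 between 0.623 and 1.90, Rpl6l between 5.61 and 46.5, Rps27rt between 19.1 and 52.4 and Rps27l between 105 and 326. No gene of the translation factor, biogenesis, translation control or mitochondrial ribosome lists passed limma's test in any marrow comparison, and the KO medians were -0.22, -0.23, -0.49 and -0.63 in that order.

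The KO difference itself was compared between the sets in 1 limma fit over 6915 genes, of which 85 were members. It asks whether KO minus WT differs between in vitro cells and sorted marrow. The median of that difference was 0.83 in the large and 0.71 in the small subunit, against 0.22 over all genes, so the KO level relative to WT was higher in vitro. limma called 5 members, all higher in vitro, and 0 lower, where it called 0.738% of all genes, 0.477% as higher and 0.26% as lower. The fit gave each gene 1 spread over the libraries of both sets, and its adjusted p-values rest on that pooling. Fitted apart, the sets differed in spread: the SE of the KO change of Rps28 was 0.07 in vitro and 0.28 in the marrow. Rpl11 (gene 67025, chr4:136049354-136053393) had a difference of 1.36 ± 0.27 (limma adjusted p 0.0295): in the marrow it was at 379, 256 and 268 FPKM in WT and at 106, 116 and 120 in KO, a ratio of 0.379, and in vitro the ratio was 0.994. Rpl12 (gene 269261, chr2:32961712-32964045), at the base of the stalk, had 1.33 ± 0.27 (0.0346), with 594, 463 and 477 FPKM in marrow WT and 178, 197 and 204 in KO. Rpl36 (gene 54217, chr17:56610094-56614246) had 1.20 ± 0.25 (0.0445), with 599, 444 and 381 in WT and 204, 239 and 193 in KO. In these 3 genes marrow KO lay below marrow WT without overlap, while the in vitro groups overlapped. Rpl36al (gene 66483, chr12:69182734-69184067) had 1.17 ± 0.24 (0.031), with 969, 801 and 971 in marrow WT and 307, 448 and 430 in KO, and Rps28 had 1.03 ± 0.21 (0.0324), with 1292, 868 and 1125 in WT and 490, 625 and 477 in KO. Of the start windows shown above, the one of Rpl12 has the pyrimidine run, and those of Rpl11, Rpl36al and Rps28 do not.

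None of these 5 calls held under quantile normalisation, median-ratio size factors or the fit with the replicate number as a block, where limma called 1 other member (Rps10, 1.22, adjusted p 0.0449), nor without any 1 of the 9 in vitro libraries (0 members called without any of them). Without 1 marrow WT or KO library, 4 to 9 members were called. Rpl12 was lost without WT replicate 1 (limma adjusted p 0.0675) and Rps28 without WT replicate 3 (0.0504). The count was 9 without KO replicate 3 and 8 without either WT replicate 2 or KO replicate 1. Calls over all genes changed too, from 33 higher and 18 lower of 6915 to 83 and 16 of 6331 without KO replicate 3. They were 25 and 42 of 6405 without WT replicate 2, and 61 and 31 of 6607 without KO replicate 1. Fits without a marrow HET library leave 1 HET library in that group, and their counts are not given.

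**Figure D5:**
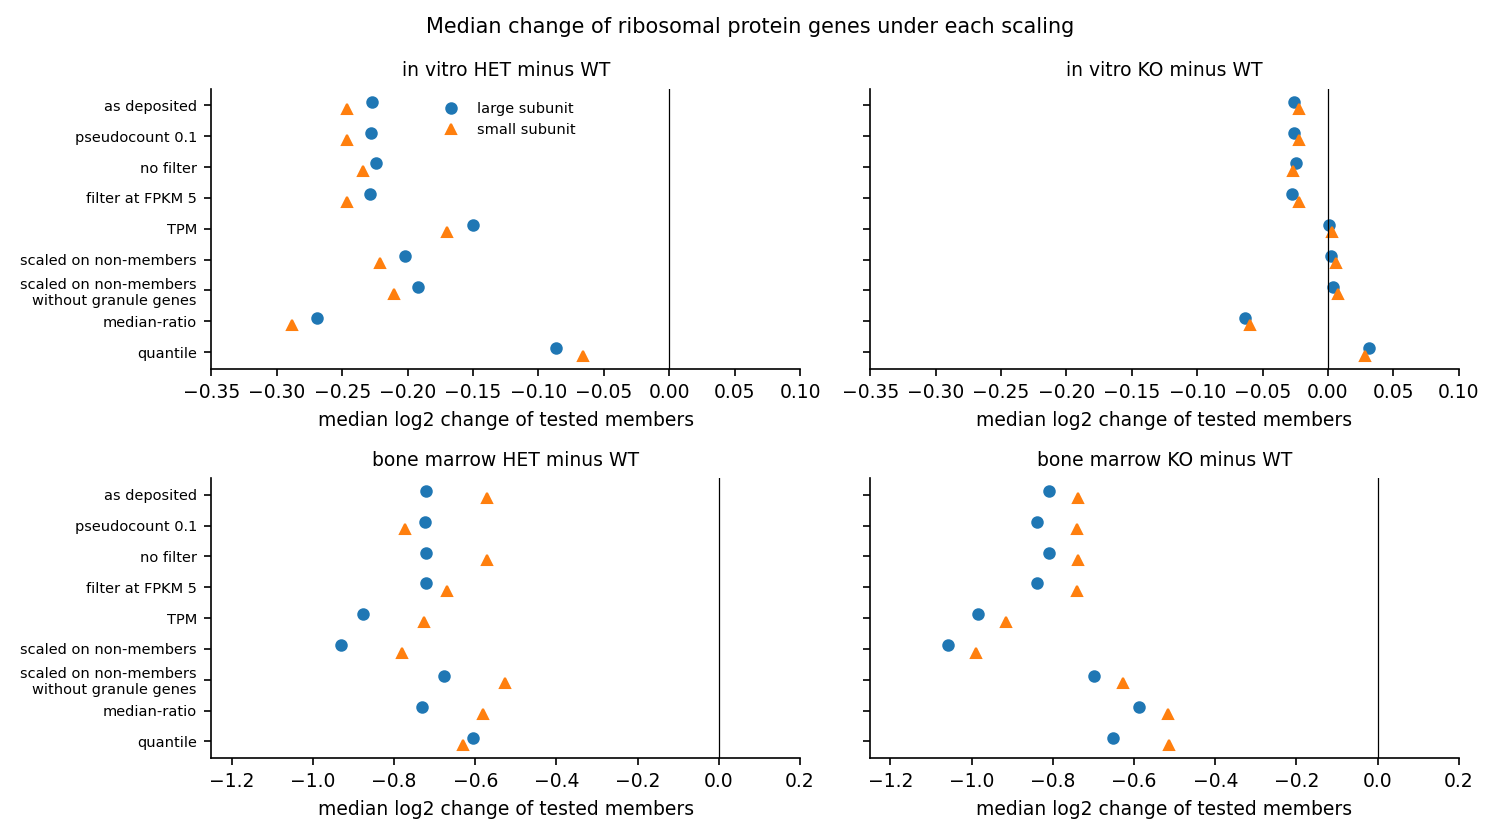
Median log2 change of the tested members as deposited and under the other settings listed on the vertical axis, for HET minus WT (left) and KO minus WT (right), in vitro (top) and in the sorted marrow (bottom), with the large subunit as circles and the small subunit as triangles. The in vitro HET medians stay below 0 and are closest to it under quantile normalisation (-0.09 and -0.07), the in vitro KO medians lie on either side of 0, and the marrow medians stay below 0 in all settings shown.

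Scaling set the size of the in vitro HET difference more than its direction. The medians were -0.27 and -0.29 with median-ratio size factors, -0.15 and -0.17 as TPM and -0.09 and -0.07 with quantile normalisation, which forces the same distribution on libraries where ribosomal protein genes fill most of the top ranks. A rank measure gave a smaller contrast: 64 to 65 core genes were among the 100 highest protein-coding genes in WT, 62 in every HET library and 66 to 67 in KO, with no overlap between the genotypes. In the marrow the KO medians were -1.06 and -0.99 rescaled on non-members, -0.59 and -0.52 with median-ratio factors and -0.65 and -0.51 with quantile normalisation, and the median over all genes was -0.37, -0.02 and -0.03 in the same order. Scaling to the median core gene sets the members' own median near 0 and is left out of this comparison.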

How the data were processed

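Bulk RNA-seq of mouse bone marrow cells was analysed from 2 tables of FPKM values per gene that the authors deposited, 1 for the in vitro set (9 libraries) and 1 for the sorted marrow (8 libraries). As genome build, the submitters' processing notes list mm10. Which aligner, counter and annotation were used is not given in the sources used here. Raw counts were not used here, and depth was estimated from the spacing of low FPKM values, which bounds its precision. No sample column was left unmapped (0).

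Groups were taken from the sample titles. Values were converted to log2(FPKM + 1) and filtered at 1 FPKM in at least 3 libraries. All genotypes of a table entered 1 limma fit (limma 3.58.1 in R 4.3.3, trend and robust, statmod 1.5.0) with Benjamini-Hochberg adjustment over all genes tested at 0.05, and a joint fit tested the interaction. The procedure was tested on simulated data, where it recovered most changes put into the in vitro set and none of those put into marrow KO against WT. Shares, ranks and ratios were computed with Python 3.11.15, pandas 2.3.3 and scipy 1.17.1, and figures with matplotlib 3.10.9.

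Named genes were those past the threshold in any comparison, the 3 with the smallest p per table and subunit against WT, all non-core members, the 3 highest and lowest core genes, the stalk, marrow failure and Mdm2-binding genes and Rpsa and Rpl22, together with genes a library or setting brought past the threshold. Some genes that this rule names are counted but not reported here by name. The members and lists were chosen with earlier results of these data known. Alternatives were another pseudocount (0.1), no filter or a filter at 5 FPKM, quantile, median-ratio, TPM and non-member scaling, a replicate block, only the compared groups, core genes only and each library left out. Scaling to the median core gene, scaling on genes that are neither members nor granule genes, and leaving out WT replicate 3 with KO replicate 2 were added after the data were seen.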

Additional observations from a re-analysis of the deposited data

Results flagged for a closer look

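The KO against WT change differed between the in vitro set and the sorted marrow for 5 ribosomal protein genes, by an interaction term in limma. That fit used 1 spread per gene over both sets, although the sets differed in spread. The difference, in vitro minus marrow on the log2(FPKM + 1) scale, was 1.36 for Rpl11, 1.33 for Rpl12, 1.2 for Rpl36, 1.17 for Rpl36al and 1.03 for Rps28. The 3 marrow KO libraries lay below the 3 marrow WT libraries for all 5 genes, and the in vitro groups overlapped for all 5. Over the fits that left out 1 library, limma's adjusted p ran from 0.00603 to 0.125 for Rpl11, from 0.00227 to 0.133 for Rpl12, from 0.0118 to 0.169 for Rpl36, from 0.0115 to 0.127 for Rpl36al and from 0.00494 to 0.127 for Rps28. None of the 5 passed the threshold with quantile or median-ratio scaling or with the replicate block.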

How the results depend on the processing

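The 2 marrow HET libraries were the shallowest, at about 3.98 and 11.75 in units of 1e6 fragments. Marrow libraries listed 3633 to 8526 genes above 0, against 16779 to 18029 in vitro. Marrow WT replicate 3 and KO replicates 2 and 3, at about 31.58, 34.11 and 35.86, listed 8194, 8519 and 8405. The part of depth in the marrow results was not tested. No member called as reported reversed its direction in another setting, and unless a value below shows it, the cause of a change was not tested. The count called in vitro for HET against WT (3 as reported) was 1 without a filter (Rpl39l, higher), 0 with median-ratio factors, the replicate block or only the compared groups, 10 as TPM, 11 scaled on non-members, 5 scaled on genes neither members nor granule genes and 6 without WT replicate 3 and KO replicate 2. Over all genes, limma called 320 of 10877 higher and 80 lower as reported, and 375 of 11905 and 55 as TPM. On non-members it called 269 of 10876 and 80, and on genes neither members nor granule genes 307 of 10874 and 66. Without those 2 libraries it called 388 of 10799 and 98, and without a filter 214 of 18807 and 36. For KO against WT (0) the count of members was 1 with the filter at 5 FPKM, scaled to the median core gene or without those 2 libraries, 2 with quantile scaling, non-member scaling or scaling on genes neither members nor granule genes, and 3 as TPM. Over all genes, limma called 148 of 10877 higher and 177 lower as reported, 107 of 11905 and 138 as TPM and 120 of 10877 and 222 with quantile. The other settings named gave 56 to 210 higher and 142 to 190 lower. For KO against HET (2) the count of members was 1 without a filter, 9 with quantile, 0 with median-ratio or the replicate block, 7 as TPM and 8 on non-members, all higher. Scaled to the median core gene it was 3, all lower (Rpl22l1, Rplp0 and Rps2), where 31 of 10903 genes were called higher and 658 lower. Over all genes, limma called 65 of 10877 higher and 151 lower as reported, and 91 of 10877 and 149 with quantile. It called 67 of 11905 and 205 as TPM, and 75 of 10876 and 136 on non-members. For the in vitro minus marrow difference (5) the count of members was 0 with quantile or median-ratio, 12 as TPM, 14 on non-members, 3 on genes neither members nor granule genes and 1 with the replicate block (Rps10, not among the 5). Over all genes, limma called 33 of 6915 higher and 18 lower as reported, 53 of 7180 and 19 as TPM and 58 of 6927 and 17 on non-members. It called 27 of 6915 and 17 on genes neither members nor granule genes, and 18 of 6915 and 16 with the replicate block. Same-numbered libraries did not deviate together (r from -0.303 to 0.181 in vitro and from -0.0191 to 0.0323 in the marrow). With so few libraries per genotype this cannot show whether the numbers pair them, and the labels do not say. The replicate block gave 0 calls in every other comparison. Large and small medians for HET against WT in vitro were -0.09 (-0.08686) and -0.07 (-0.0662) with quantile and -0.02497 and -0.04346 scaled to the median core gene, and for KO against HET 0.1082 and 0.09435, then -0.02269 and -0.01147. Scaled to the median core gene, the marrow medians were -0.03724 and -0.08572 for HET and -0.0005108 and 0.09971 for KO against WT. Marrow KO against WT medians were -0.5883 and -0.5173 with median-ratio, -1.059 and -0.9905 on non-members, and -0.5131 in the small subunit with quantile, and KO against HET 0.02788 and 0.1933 with median-ratio. The in vitro minus marrow medians were 0.5722 and 0.4465 with median-ratio and 1.11 and 0.9848 on non-members. Log2 ratios of summed FPKM (large, then small) with quantile were -0.03762 and -0.03729 for HET against WT and 0.05481 and 0.06873 for KO against HET in vitro, where they were -0.2073, -0.213, 0.1854 and 0.199 as deposited. In the marrow, KO against WT gave -0.6241 and -0.4391 with median-ratio and -1.089 and -0.9101 on non-members, and in the small subunit -0.4472 with quantile and -0.8324 as TPM. HET against WT gave -0.5838 as TPM and -0.6403 on non-members in the small subunit, and KO against HET -0.162 and 0.005644 with median-ratio and -0.04867 with quantile in the small subunit. Leaving out 1 library gave 0 to 8 calls for HET against WT, 0 to 1 for KO against WT and 0 to 3 for KO against HET in vitro, 0 to 9, 0 to 0 and 0 to 4 in the marrow, and 0 to 14 for the difference between sets. Over all fits without 1 marrow library, the marrow medians ran from -0.7282 to -0.3611 (large) and -0.8141 to -0.4846 (small) for HET against WT and from -0.5654 to -0.1601 and -0.2257 to 0.2893 for KO against HET.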
